A study of Mus musculus with 8 samples.

Results

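The genes described here are 39 ligands, receptors, SMADs, antagonists and target genes of the bone morphogenetic protein (BMP) and transforming growth factor beta (TGF-beta) pathway, named one by one and matched to Entrez gene IDs among the 27179 genes of the count table. All 39 were found: 12 ligands, 11 receptors, 8 SMADs, 4 secreted antagonists and 4 Id genes as targets. RNA was sequenced from 8 embryonic mouse hearts at E10.5, of which 5 were wild type for Kat6a (Kat6a WT, Kat6a+/+) and 3 had lost both alleles (Kat6a KO, Kat6a-/-). The protein made from Kat6a (Moz) acetylates histones, and the comparison asks how its loss changes gene expression in the heart. The labels give no strain, litter, sex or further allele, and do not say how the allele was made. Each value comes from the read counts of 1 heart, shown as CPM, which scales the count to the library size after adjustment by trimmed mean of M values. Levels are compared between genes only as CPM per kb of the gene model length in the deposited table.

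BMP, activin and TGF-beta ligands are secreted dimers that bring together type I and type II receptor kinases. BMP receptors pass the signal to SMAD1, SMAD5 and SMAD9, activin and TGF-beta receptors pass it to SMAD2 and SMAD3, and activated SMADs of either group form complexes with SMAD4 that move to the nucleus. SMAD6 and SMAD7 inhibit the pathway and are themselves induced by it, and the Id genes, which encode helix-loop-helix proteins without a DNA-binding region, are early BMP targets. In the embryonic heart, BMP signals act in the growth of the chambers, in the outflow tract and in the formation of the endocardial cushions that become valves.

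Hearts held 19911803 to 34539787 counts each. Kat6a itself stood at 138 to 156 CPM in Kat6a WT and 133 to 141 CPM in Kat6a KO hearts (log2 fold change -0.08 ± 0.05 SE, edgeR adjusted p = 0.529), and since the deleted part is not given here, this summed count is no check on the labels. Xist RNA was present in 2 Kat6a WT hearts, replicates 4 and 5, and in 0 Kat6a KO hearts. In the sample descriptions the Kat6a KO hearts carry the lower numbers, 1 to 3, and the Kat6a WT hearts 4 to 8, an order that cannot be told apart from genotype. Cell type markers are counted as higher or lower at an edgeR adjusted p under 0.05, which 2.67% of all genes tested met. By this rule 5 of 7 epicardial genes were lower in Kat6a KO (summed level 409 to 477 CPM in Kat6a WT and 287 to 333 CPM in Kat6a KO hearts). Of the macrophage genes, 4 of 5 were higher (4.80 to 11.2 and 14.8 to 21.3 CPM). The rest of these lists had log2 fold changes of the same sign without passing: Tbx18 -0.25, Aldh1a2 -0.37 and Cd68 0.54. The summed level of 7 endothelial and endocardial genes was 1094 to 1245 CPM in Kat6a WT and 1110 to 1179 CPM in Kat6a KO, with 2 genes higher and 1 lower. That of 6 cushion genes was 1476 to 1684 and 1446 to 1668 CPM with 1 gene lower, and that of 6 cardiomyocyte genes 20313 to 21411 and 20267 to 24477 CPM with 1 gene higher. Most of the cushion sum was Vcan, at 1098 to 1364 CPM in Kat6a WT hearts and a log2 fold change of 0.07. The median log2 fold change of the 6 cushion genes was -0.21, so their sum says little of the others. Most of the cardiomyocyte sum was Myh6 and Myh7, with Kat6a WT means of 6622 and 8588 CPM and log2 fold changes of -0.01 and 0.24. Erythroid genes summed to 3342 to 13902 CPM in Kat6a WT and 4640 to 8035 CPM in Kat6a KO hearts. Liver genes summed to 0.372 to 1.62 and 1.27 to 14.5 CPM, with the top value in Kat6a KO replicate 3. Afp was at 12.1 CPM there and at 1.04 and 0.661 CPM in the other Kat6a KO hearts. Pharyngeal and neural crest genes summed to 5.25 to 12.8 and 6.76 to 9.85 CPM, with Tfap2b and Foxd3 at 0 counts in every heart. Immediate early and heat shock genes summed to 197 to 241 CPM in Kat6a WT and 219 to 403 CPM in Kat6a KO hearts. The top value was that of Kat6a KO replicate 1, where Fos, Jun, Egr1 and Atf3 were at 16.9, 228, 55.7 and 32.9 CPM. In the other hearts they stood at 4.78 to 7.90, 108 to 143, 10.99 to 15.3 and 10.4 to 15.3 CPM. Of this list only Hspa1b was not highest in that replicate. The part of these cells in the values given here was not tested, and in whole hearts fewer cells of a type and less RNA per cell cannot be told apart.

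Promoter sequence is shown for 3 members that are known BMP-responsive genes, Id2, Id3 and Smad6, and for the BMP-responsive gene Msx1, which was lower in Kat6a KO while those 3 did not pass the test. Each sequence is the 250 bases before the annotated start, 5′ to 3′ on the strand of the gene, from RefSeq on GRCm38.p6, the same assembly as mm10. For Smad6 the start is that of a transcript lying just inside the outer end of the gene model. Capitals mark GGCGCC, a GC-rich SMAD element of BMP targets, and CAGAC, a SMAD-binding box, each searched on both strands, so that the latter also appears as GTCTG. No match overlaps another in these sequences.
Id2, chr12:25096093-25096342, minus strand: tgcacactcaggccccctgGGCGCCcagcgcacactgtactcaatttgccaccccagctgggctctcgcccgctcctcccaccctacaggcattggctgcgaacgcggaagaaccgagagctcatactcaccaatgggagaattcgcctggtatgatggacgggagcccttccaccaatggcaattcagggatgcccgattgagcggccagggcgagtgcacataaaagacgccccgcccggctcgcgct
Id3, chr4:136143572-136143821, plus strand: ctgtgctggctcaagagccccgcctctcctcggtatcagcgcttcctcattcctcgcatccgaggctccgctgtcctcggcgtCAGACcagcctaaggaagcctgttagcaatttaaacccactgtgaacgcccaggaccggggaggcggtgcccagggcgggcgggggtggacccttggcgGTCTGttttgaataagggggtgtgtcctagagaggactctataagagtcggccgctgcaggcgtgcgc
Smad6, chr9:64022060-64022309, minus strand: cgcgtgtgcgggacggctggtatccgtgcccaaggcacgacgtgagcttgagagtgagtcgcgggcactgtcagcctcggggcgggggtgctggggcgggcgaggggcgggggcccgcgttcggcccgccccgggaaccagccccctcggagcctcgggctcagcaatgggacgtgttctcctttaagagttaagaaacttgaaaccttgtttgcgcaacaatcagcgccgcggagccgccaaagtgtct
Msx1, chr5:37824586-37824835, minus strand: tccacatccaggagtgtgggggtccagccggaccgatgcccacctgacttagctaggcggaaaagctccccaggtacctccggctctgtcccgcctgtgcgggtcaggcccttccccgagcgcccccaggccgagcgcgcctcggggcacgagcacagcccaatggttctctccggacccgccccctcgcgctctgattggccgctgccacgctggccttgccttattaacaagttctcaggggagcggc

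The Id2 window held 1 GGCGCC and 0 CAGAC, the Id3 window 0 and 2, and the Smad6 and Msx1 windows neither. Over 32851 windows of the same length, 9.59% held GGCGCC and 42.2% held CAGAC. Of 35 windows of the 29 members in the promoter table, 10 held GGCGCC (28.6%) and 14 held CAGAC (40.0%). The member windows were also richer in G and C, with a median of 66.4% against 52.4% over all windows. A match here is a match of letters only.

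None of the 39 listed members passed the test between the genotypes. Of the 39, 37 had enough counts to be tested, and 0 were higher and 0 lower in Kat6a KO when adjusted p had to be under 0.05 (quasi-likelihood test of edgeR, adjusted by Benjamini-Hochberg over 15086 genes). By the same rule 2.67% of all genes tested were called, 1.44% higher and 1.23% lower, so that about a single call would match the background. DESeq2 and limma voom also called 0 of the 37, where they called 3.84% and 2.45% of all genes. At an unadjusted p under 0.05 there were 8 members of 37 (21.6%), 4 higher and 4 lower, against 14.2% of all genes. In 0 of the 37 did the values of the 3 Kat6a KO hearts lie wholly above or below those of the 5 Kat6a WT hearts, which held for 9.59% of all genes.

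Most of the differences were bounded within 1.5-fold, a limit that leaves smaller changes open. The median log2 fold change (Kat6a KO over Kat6a WT) of the 37 members was -0.01 and the median of its size 0.09, the latter also 0.09 over all genes tested. For 31 of the 37 (83.8%) the 95% interval of the difference lay within 1.5-fold either way, against 74.2% of all genes. A tighter limit is the smallest fold change of the simulated counts, given with the processing. Within it lay the intervals of 23 of the 37 (62.2%), against 54.8% of all genes. By role these were 4 of 11 ligands, 9 of 11 receptors, 7 of 8 SMADs, 0 of 3 antagonists and 3 of 4 targets. These intervals are for single genes and are not adjusted for their number. The 6 members with an interval beyond 1.5-fold were Bmp4, Inhba, Inhbb, Bmpr1b, Acvrl1 and Chrd. Each of them had a coefficient of variation between Kat6a WT hearts of at least 20.1%, and all but Bmp4 were at low levels.

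**Figure D1:**
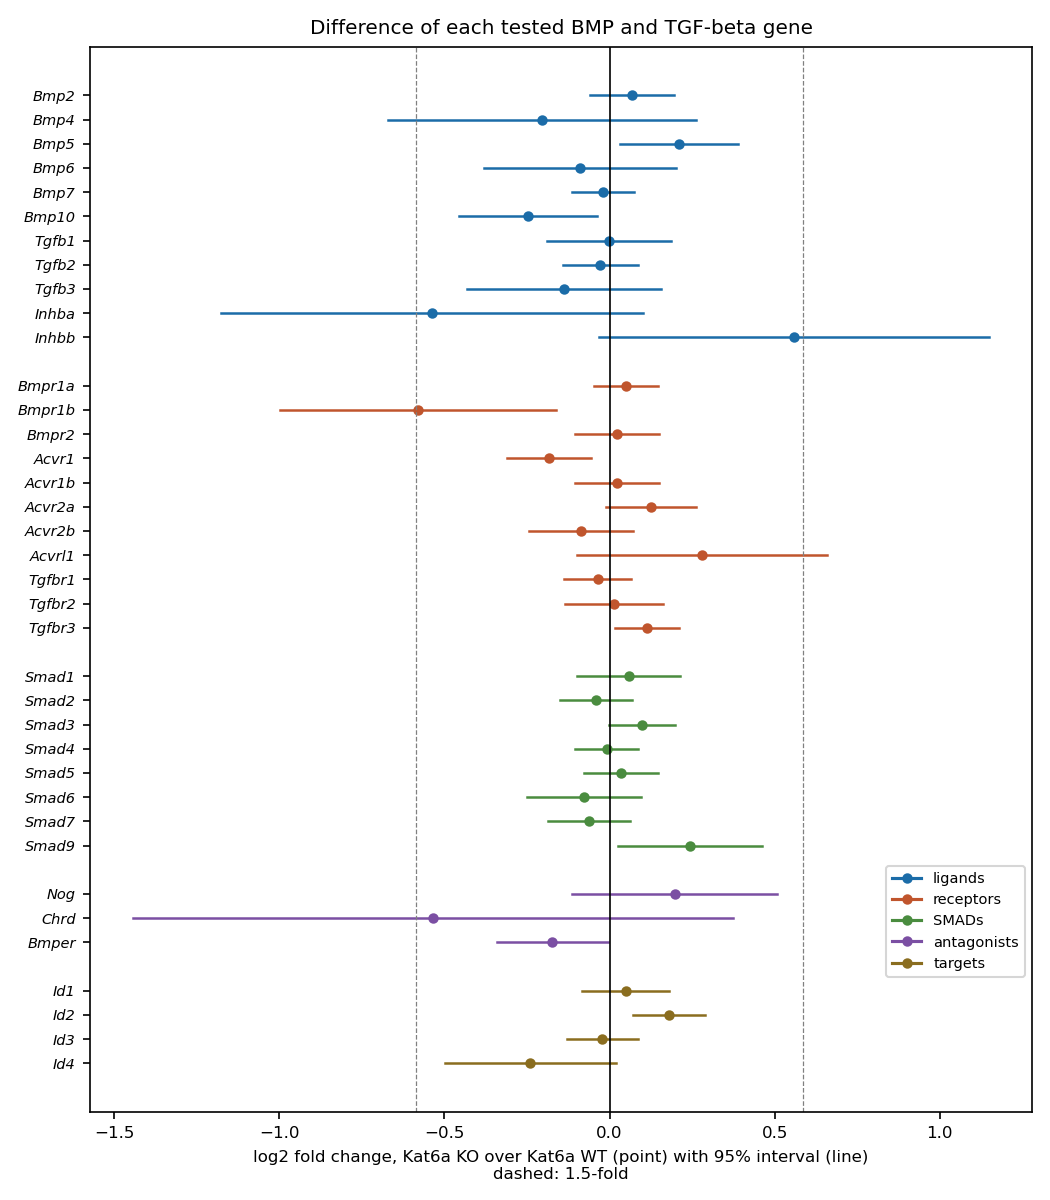
Log2 fold change of Kat6a KO over Kat6a WT hearts for the 37 tested members, as points with 95% intervals (edgeR quasi-likelihood fit, n = 5 and n = 3), coloured by role, with dashed lines at 1.5-fold either way. The intervals of 31 members stay within the dashed lines, and those of Chrd, Inhba, Inhbb and Bmp4 are the widest.

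Of the ligands, 11 of 12 were tested and 0 passed, and 8 of the 11 intervals lay within 1.5-fold. Bmp7 (chromosome 2, 172868012 to 172940321) had the highest level per length in Kat6a WT hearts, 107 ± 3.67 CPM per kb (SD, n = 5), and no overlap with the next ligand. It encodes a BMP of broad expression that overlaps in function with Bmp5 and Bmp6. Bmp7 stood at 212, 217, 210, 199 and 217 CPM in Kat6a WT replicates 1 to 5 and at 217, 203 and 206 CPM in Kat6a KO replicates 1 to 3. The groups overlapped throughout, and the log2 fold change was -0.02 with a 95% interval of -0.11 to 0.08.

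Bmp10 (chromosome 6, 87428994 to 87434512), a ligand of the trabecular myocardium needed for growth of the ventricular wall, was next with 46.6 ± 3.89 CPM per kb. Bmp10 was measured at 57.6, 69.7, 63.0, 58.8 and 57.8 CPM in Kat6a WT hearts and at 61.6, 46.2 and 47.0 CPM in Kat6a KO hearts. Kat6a KO replicates 2 and 3 were below every Kat6a WT heart, and replicate 1 lay among them. Its log2 fold change was -0.25 ± 0.10 (SE, edgeR adjusted p = 0.257). Without Kat6a KO replicate 1 it was -0.40 and past the threshold (edgeR adjusted p = 0.0142). That was the only 1 of 18 alternatives to call Bmp10, and over all of them adjusted p, by the test of each, reached 0.515.

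Bmp5 showed the reverse picture, with a single Kat6a WT heart apart. Its levels were 63.5, 47.0, 47.4, 49.2 and 49.8 CPM in Kat6a WT replicates 1 to 5, and 59.6, 59.8 and 59.0 CPM in Kat6a KO replicates 1 to 3. The Kat6a KO hearts were close together and above 4 of the 5 Kat6a WT hearts, and Kat6a WT replicate 1 was above all of them. The log2 fold change was 0.21 ± 0.08 (adjusted p = 0.256), and without Kat6a WT replicate 1 it was 0.30 (adjusted p = 0.00484). Both values come from the edgeR quasi-likelihood test. Bmp5 passed under only 1 of 18 alternatives, and over all of them its adjusted p, by the test of each, reached 0.541.

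Bmp4 and Bmp2 are the ligands best known from the outflow tract and the atrioventricular canal, where Bmp2 of the myocardium induces the cushions. Bmp4 varied most among the ligands above 10 CPM per kb, with 45.2, 77.0, 49.2, 63.9 and 66.0 CPM in Kat6a WT and 48.1, 50.4 and 57.9 CPM in Kat6a KO hearts. All Kat6a KO values were inside the Kat6a WT range, and the log2 fold change of -0.21 had an interval of -0.67 to 0.26, which reached beyond 1.5-fold. Bmp2 was steady, at 48.9, 50.6, 52.9, 46.8 and 48.8 CPM in Kat6a WT and 52.1, 49.1 and 54.8 CPM in Kat6a KO hearts. Its interval was -0.06 to 0.19. Bmp6 stood at 15.4 ± 3.22 CPM in Kat6a WT and 14.4 ± 0.781 CPM in Kat6a KO.

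Among the TGF-beta ligands 0 passed. Tgfb2, the isoform whose loss causes outflow and septal defects, stood at 107, 117, 124, 109 and 123 CPM in Kat6a WT and at 116, 115 and 111 CPM in Kat6a KO hearts. Tgfb1, which is made by endothelium and endocardium, stood at 41.8, 42.5, 46.6, 58.2 and 46.9 CPM and at 47.2, 47.8 and 46.3 CPM. In both genes the Kat6a KO hearts lay inside the Kat6a WT range. The intervals were -0.14 to 0.09 for Tgfb2 and -0.19 to 0.19 for Tgfb1. Tgfb3 was lower in level, 18.7 ± 2.81 CPM in Kat6a WT and 16.8 ± 3.52 CPM in Kat6a KO, with a log2 fold change of -0.14 and a wider interval of -0.43 to 0.16.

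The activin subunit genes were low and imprecise. Inhba was at 2.64, 8.04, 3.94, 4.00 and 3.92 CPM in Kat6a WT and at 3.35, 3.10 and 2.74 CPM in Kat6a KO hearts, with Kat6a WT replicate 2 above the rest. Inhbb was at 1.52, 2.01, 1.22, 2.31 and 1.58 CPM and at 3.21, 1.42 and 2.83 CPM, with 2 Kat6a KO hearts above and 1 within the Kat6a WT range. Their log2 fold changes were -0.54 and 0.56 with intervals of -1.18 to 0.10 and -0.03 to 1.15. A single heart moved each of them by over 1.5 times: without Kat6a WT replicate 2 the value of Inhba was -0.24, and without Kat6a KO replicate 1 that of Inhbb was 0.32. Gdf1, a ligand of left-right patterning, had 0 counts in all 8 hearts. A count of 0 allows up to 3 counts, or 0.0870 to 0.152 CPM per heart. Gdf1 shares 15814 bases with Cers1, which also had 0 counts in every heart, and the strand and overlap settings of the counting are not given here, so the level of this pair is unknown.

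In Kat6a WT hearts the order of ligands per length was Bmp7, Bmp10, Bmp4, Tgfb2, Tgfb1, Bmp5, Bmp2, Bmp6, Tgfb3, Inhba and Inhbb. From Bmp4 (30.2 ± 6.50 CPM per kb) down to Bmp2 (19.7 ± 0.904) neighbours overlapped in their ranges over the 5 hearts, as did Bmp6 (6.38 ± 1.34), Tgfb3 (5.51 ± 0.83) and Inhba (2.95 ± 1.34). Gaps without overlap separated Bmp7 from Bmp10, Bmp10 from Bmp4, Bmp2 from Bmp6 and Inhba from Inhbb (0.406 ± 0.101).

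**Figure D2:**
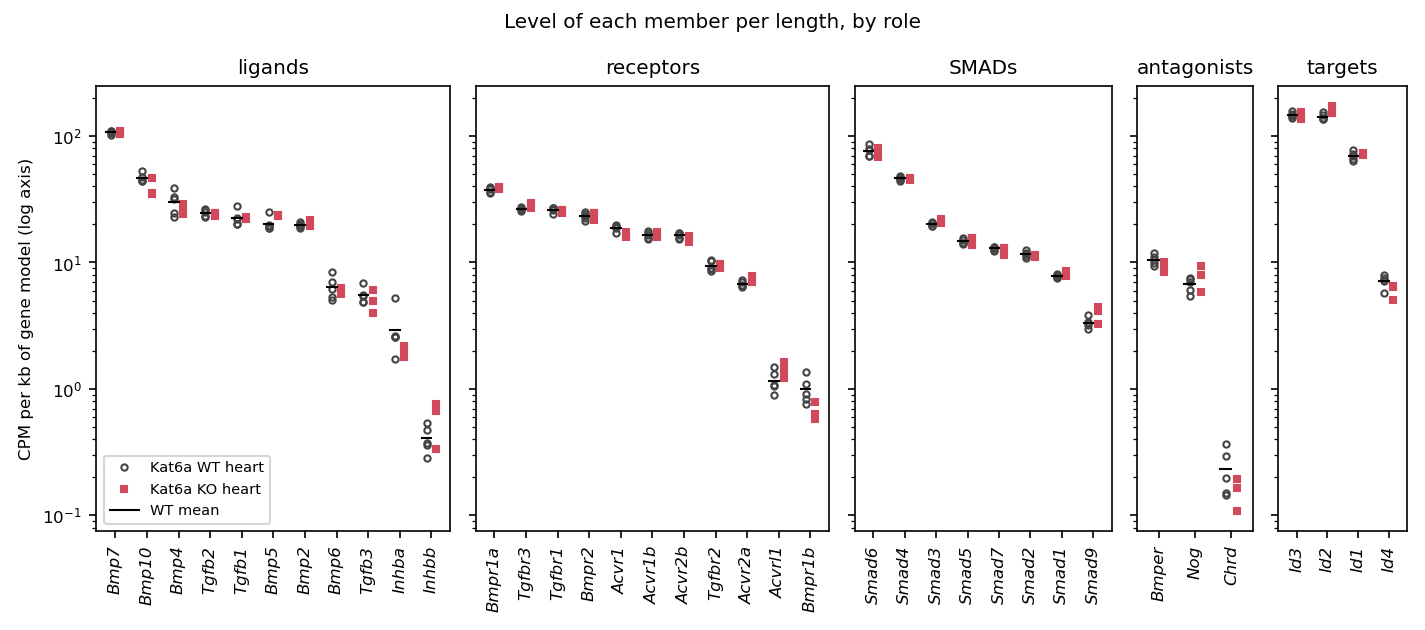
CPM per kb of gene model (log axis) in each heart for members with counts in every heart, ordered within each role by the Kat6a WT mean (line); circles are 5 Kat6a WT and squares 3 Kat6a KO hearts. Bmp7, Bmpr1a, Smad6, Bmper and Id3 lead their roles, and in 0 of the members drawn do the Kat6a KO hearts stand clear of the Kat6a WT hearts.

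Of the 11 receptors all were tested and 0 passed, and 9 of the 11 intervals lay within 1.5-fold. Bmpr1a (chromosome 14, 34411061 to 34503336), the main type I BMP receptor of the heart muscle, led in Kat6a WT hearts with 37.5 ± 1.67 CPM per kb. Its values were 203, 205, 210, 193 and 189 CPM in Kat6a WT and 210, 201 and 210 CPM in Kat6a KO hearts. The groups overlapped, and the interval of the log2 fold change was -0.05 to 0.15. Bmpr2, the type II BMP receptor, stood at 81.7 ± 5.15 and 82.8 ± 6.37 CPM, with an interval of -0.11 to 0.15.

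Acvr1 (chromosome 2, 58446438 to 58566828), a type I receptor for BMPs that acts in the endocardial cushions, came closest to a lower level among receptors. Kat6a WT replicates 1 to 5 had 55.9, 64.4, 62.8, 65.3 and 61.7 CPM of Acvr1, and Kat6a KO replicates 1 to 3 had 57.2, 53.8 and 52.5 CPM. Only Kat6a WT replicate 1 lay within the Kat6a KO range. The log2 fold change was -0.18 ± 0.06 (edgeR adjusted p = 0.133). Without Kat6a WT replicate 1 it was -0.22 and past the threshold (edgeR adjusted p = 0.0416). No other of the 18 alternatives called Acvr1, and over all of them adjusted p, by the test of each, reached 0.471. Acvr1 shares 512 bases with Upp2.

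Bmpr1b, a type I receptor better known from cartilage and ovary, was low. It stood at 7.31, 5.84, 4.09, 4.87 and 4.40 CPM in Kat6a WT hearts and at 3.08, 3.41 and 4.18 CPM in Kat6a KO hearts. Kat6a KO replicates 1 and 2 were below every Kat6a WT heart and replicate 3 was within their range. With a log2 fold change of -0.58 (interval -0.998 to -0.16, adjusted p = 0.158) it had the largest difference among receptors.

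Tgfbr3, or betaglycan, a co-receptor that presents TGF-beta2 to the signalling receptors, had the smallest spread between Kat6a WT hearts of any member, a coefficient of variation of 2.32%. It stood at 161, 154, 165, 159 and 160 CPM in Kat6a WT and at 179, 177 and 163 CPM in Kat6a KO hearts. Kat6a KO replicates 1 and 2 were above every Kat6a WT heart and replicate 3 was among them (log2 fold change 0.11 ± 0.05, edgeR adjusted p = 0.244). The signalling receptors of TGF-beta differed little: Tgfbr1 had 148 ± 6.86 and 145 ± 3.97 CPM with an interval of -0.14 to 0.06. Tgfbr2 had 45.2 ± 3.98 and 45.5 ± 1.91 CPM with an interval of -0.13 to 0.16.

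Of the activin receptors, Acvr1b, the type I receptor, had 53.9 ± 3.30 CPM in Kat6a WT and 54.7 ± 2.25 CPM in Kat6a KO. The type II receptors Acvr2a and Acvr2b had log2 fold changes of 0.13 ± 0.07 and -0.09 ± 0.08, with intervals of -0.01 to 0.26 and -0.24 to 0.07. Acvrl1, also called Alk1, is the endothelial receptor for Bmp10 and its relative Gdf2. It was measured at 3.82, 5.36, 4.76, 3.22 and 3.88 CPM in Kat6a WT and 4.38, 5.90 and 5.13 CPM in Kat6a KO hearts, with an interval of -0.10 to 0.66. The groups overlapped, and the interval reached beyond 1.5-fold.

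Among receptors the order per length in Kat6a WT hearts was Bmpr1a, Tgfbr3, Tgfbr1, Bmpr2, Acvr1, Acvr1b, Acvr2b, Tgfbr2, Acvr2a, Acvrl1 and Bmpr1b. The ranges of Tgfbr3 (26.4 ± 0.614 CPM per kb), Tgfbr1 (26.2 ± 1.21) and Bmpr2 (23.3 ± 1.47) overlapped from neighbour to neighbour, as did those of Acvr1, Acvr1b and Acvr2b (18.8 ± 1.12, 16.4 ± 1.01 and 16.4 ± 0.873). Acvrl1 and Bmpr1b, at 1.16 ± 0.234 and 0.994 ± 0.244 CPM per kb, overlapped too.

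The 8 SMAD genes were all tested and 0 passed, and all 8 intervals lay within 1.5-fold. Smad6, the inhibitor of BMP signalling whose promoter is printed above, had the highest level per length, 76.6 ± 7.27 CPM per kb in Kat6a WT. Smad6 had 207, 258, 206, 231 and 236 CPM in Kat6a WT hearts and 201, 207 and 239 CPM in Kat6a KO hearts. Both groups spread over nearly the same range, and the interval was -0.25 to 0.10. Smad7, the inhibitor of both arms, had 57.5 ± 1.84 CPM in Kat6a WT and 55.1 ± 3.87 CPM in Kat6a KO, with an interval of -0.19 to 0.06.

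The receptor-activated SMADs of the BMP arm are Smad1, Smad5 and Smad9. Smad1 stood at 23.8 ± 0.759 and 24.8 ± 1.10 CPM, and Smad5 at 105 ± 4.85 and 108 ± 7.60 CPM. Smad9 had the widest interval of the SMADs, and stood at 17.9, 18.0, 16.0, 20.6 and 17.1 CPM in Kat6a WT and 17.6, 22.1 and 24.0 CPM in Kat6a KO hearts. Kat6a KO replicates 2 and 3 were above every Kat6a WT heart and replicate 1 was among them. The log2 fold change of Smad9 was 0.24 ± 0.10 (edgeR adjusted p = 0.278).

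Of the TGF-beta arm, Smad2 had 106 ± 6.34 CPM in Kat6a WT and 103 ± 1.82 CPM in Kat6a KO. Smad3 had 105, 99.1, 99.7, 106 and 104 CPM in Kat6a WT and 111, 113 and 105 CPM in Kat6a KO hearts, where 2 of 3 lay above the Kat6a WT range; its log2 fold change was 0.10 with an interval of -0.00106 to 0.20 (adjusted p = 0.358). The shared partner Smad4 had 154 ± 5.76 and 153 ± 3.07 CPM and an interval of -0.10 to 0.09. Per length, SMADs in Kat6a WT hearts ranked Smad6, Smad4 (46.1 ± 1.72 CPM per kb), Smad3 (20.1 ± 0.584), Smad5, Smad7, Smad2, Smad1 and Smad9 (3.34 ± 0.317), and among neighbours only Smad7 (12.9 ± 0.415) and Smad2 (11.6 ± 0.693) overlapped.

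Of the 4 secreted BMP antagonists, 3 were tested and 0 passed, and 2 of the 3 intervals lay within 1.5-fold. Bmper (chromosome 9, 23223076 to 23485215), an extracellular BMP modulator made by endothelium, led with 10.53 ± 0.983 CPM per kb in Kat6a WT hearts. Bmper stood at 45.4, 37.6, 39.6, 35.7 and 41.5 CPM in Kat6a WT and 32.0, 36.5 and 38.2 CPM in Kat6a KO hearts. Kat6a KO replicate 1 was below every Kat6a WT heart and the other 2 were within their range (log2 fold change -0.17 ± 0.08, edgeR adjusted p = 0.336). Nog, which encodes noggin, a protein that binds and blocks BMPs, had 14.6, 10.4, 14.2, 11.6 and 13.5 CPM and 11.2, 15.3 and 18.2 CPM, with overlapping groups and an interval of -0.11 to 0.51. Chrd, encoding chordin, was near the limit at 0.756 ± 0.316 and 0.507 ± 0.139 CPM, and it shares 3087 bases with Thpo. Grem1, encoding gremlin, had 1, 4, 1, 1 and 3 counts in Kat6a WT and 0, 2 and 7 counts in Kat6a KO hearts, too few to test.

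The 4 Id genes, listed as targets among the members, were tested and 0 passed. Id2 (chromosome 12, 25093799 to 25096092) had the smallest adjusted p of all 37 members. It stood at 195, 177, 186, 173 and 172 CPM in Kat6a WT replicates 1 to 5 and at 193, 203 and 219 CPM in Kat6a KO replicates 1 to 3. Kat6a WT replicate 1 was above Kat6a KO replicate 1, and apart from that pair the Kat6a KO hearts were higher. The log2 fold change of Id2 was 0.18 ± 0.05 (interval 0.07 to 0.29, edgeR adjusted p = 0.0786). Without Kat6a WT replicate 1 it was 0.21 and past the threshold (edgeR adjusted p = 0.0244). Id2 passed under only that 1 of 18 alternatives, and over all of them its adjusted p, by the test of each, reached 0.438.

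Id1 and Id3, which are expressed in endocardium, epicardium and cushions, gave intervals of -0.08 to 0.18 and -0.13 to 0.09. Id1 stood at 66.0, 70.8, 60.2, 57.6 and 63.5 CPM in Kat6a WT and 64.1, 67.2 and 66.1 CPM in Kat6a KO hearts. Id3 stood at 137, 149, 133, 137 and 143 CPM and at 131, 135 and 148 CPM. In both genes the groups overlapped. Id4 had 9.58, 13.2, 11.7, 12.5 and 12.0 CPM in Kat6a WT and 10.6, 8.44 and 10.8 CPM in Kat6a KO hearts, with an interval of -0.50 to 0.02, and it shares 1508 bases with A330033J07Rik. In Kat6a WT hearts Id3 and Id2 were nearly equal per length (147 ± 6.66 and 142 ± 7.76 CPM per kb, overlapping), above Id1 (69.8 ± 5.61) and Id4 (7.11 ± 0.815).

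**Figure D3:**
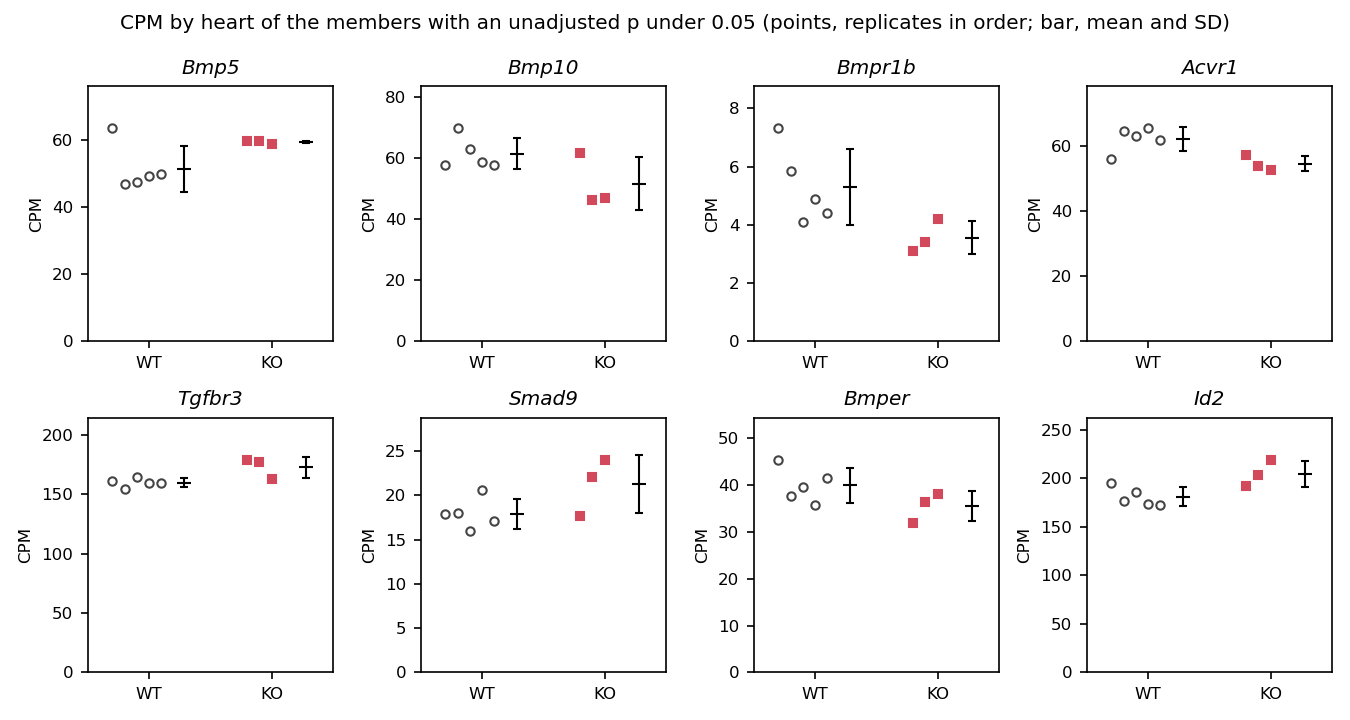
CPM by heart of the 8 members with an unadjusted p under 0.05, with circles for 5 Kat6a WT and squares for 3 Kat6a KO hearts (replicates in order from left to right) and bars for mean and SD. The groups overlap in each of the 8, through Kat6a WT replicate 1 in Bmp5, Acvr1 and Id2 through 1 Kat6a KO heart in Bmp10, Bmpr1b, Tgfbr3 and Smad9, and through 2 in Bmper.

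The spread of the members between Kat6a WT hearts was small. Their median coefficient of variation was 6.70%, against 8.16% over all genes tested, with medians of 4.17% for SMADs, 5.95% for receptors, 6.75% for targets, and 13.9% for ligands and for antagonists alike. Inhba (45.6%) and Chrd (41.8%) varied most, both at low levels.

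The wider pathway was read from a list of 112 further genes, of which 95 were tested; 4 were higher, 7 lower and 84 did not pass (11.6% called, against 2.67% of all genes). Results for Msx1, Msx2, Hand1, Gata4 and Twist1 were known when that list was written, so its share is no independent evidence. The median log2 fold change of the 95 was -0.01. Calls lay among co-receptors, latent binding proteins and responding genes: 0 of 12 further ligands, 0 of 13 further secreted antagonists and 0 of 21 intracellular regulators passed, the last with 21 of 21 intervals within 1.5-fold.

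Of 12 further receptors and co-receptors, 1 rose and 2 fell. Hjv (hemojuvelin; chromosome 3, 96525163 to 96529216), a BMP co-receptor of striated muscle and liver, rose by 0.55 ± 0.08 on the log2 scale (edgeR adjusted p = 0.000293). It stood at 23.2, 20.1, 20.1, 21.8 and 20.6 CPM in Kat6a WT and 31.9, 30.9 and 29.8 CPM in Kat6a KO hearts, with a clear gap between the groups. Nrp2, a co-receptor for semaphorins and vascular growth factors that can also bind TGF-beta, fell by 0.85 ± 0.115 on the log2 scale (edgeR adjusted p = 0.00147), from 46.7 ± 6.50 to 25.9 ± 2.81 CPM, a call lost with the replicate number as a block (adjusted p = 0.0902). Nrp2 and 4930487H11Rik overlap over 3815 bases. Lrp2, or megalin, an endocytic receptor for several signalling proteins including BMP4, fell by 0.67 ± 0.13 (adjusted p = 0.0065), from 10.48 ± 0.958 to 6.58 ± 1.04 CPM, and the call was just lost without Kat6a KO replicate 3 (adjusted p = 0.0505). The general co-receptor endoglin (Eng), of endothelium, had 238 ± 5.40 and 247 ± 14.7 CPM and did not pass (adjusted p = 0.681).

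Among 14 genes for latency and processing of ligands, 1 rose and 0 fell. Ltbp1 (chromosome 17, 75005480 to 75392512), which ties latent TGF-beta to the matrix and whose long form is needed for septation of the outflow tract, rose by 0.35 ± 0.06 on the log2 scale (edgeR adjusted p = 0.00114). Ltbp1 stood at 298, 357, 330, 305 and 331 CPM in Kat6a WT and 423, 430 and 386 CPM in Kat6a KO hearts. Every Kat6a KO heart was above every Kat6a WT heart.

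Of 23 further genes that respond to BMP or TGF-beta, 2 rose and 5 fell. The homeobox gene Msx1, whose promoter is printed beside those of the members, fell by 1.01 ± 0.13 on the log2 scale (edgeR adjusted p = 0.000132). It stood at 15.6, 13.4, 10.6, 13.7 and 12.1 CPM in Kat6a WT and 6.16, 6.81 and 6.48 CPM in Kat6a KO hearts, without overlap, and shares 2188 bases with Msx1os. Its paralog Msx2 rose by 0.41 ± 0.11 (adjusted p = 0.0472), from 17.0 ± 2.11 to 22.7 ± 3.29 CPM, and this call was lost under 11 of 18 alternatives (adjusted p up to 0.313).

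The other genes that fell encode transcription factors of the early heart and of mesenchyme. Hand1 fell by 1.04 ± 0.09 on the log2 scale, from 88.2 ± 10.47 to 43.0 ± 2.42 CPM, and Twist1 by 0.48 ± 0.07, from 63.2 ± 3.76 to 45.5 ± 3.74 CPM. Twist1 is also the cushion gene counted as lower above, so the same result stands in both lists. Gata4 fell by 0.19 ± 0.04 (edgeR adjusted p = 0.0199) and Hand2 by 0.22 ± 0.06 (adjusted p = 0.0446), and those calls were lost under 5 and 12 of 18 alternatives (adjusted p up to 0.242 and 0.268). Tagln, a smooth muscle actin-binding protein and TGF-beta target, rose by 0.35 ± 0.06, from 512 ± 47.9 to 653 ± 13.3 CPM, and overlaps Pcsk7 over 2480 bases. The BMP-induced repressors Tbx2 and Tbx3 and the cushion gene Has2 did not pass, at log2 fold changes of 0.16 ± 0.07, 0.24 ± 0.11 and -0.18 ± 0.12 (adjusted p = 0.333, 0.330 and 0.592).

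**Figure D4:**
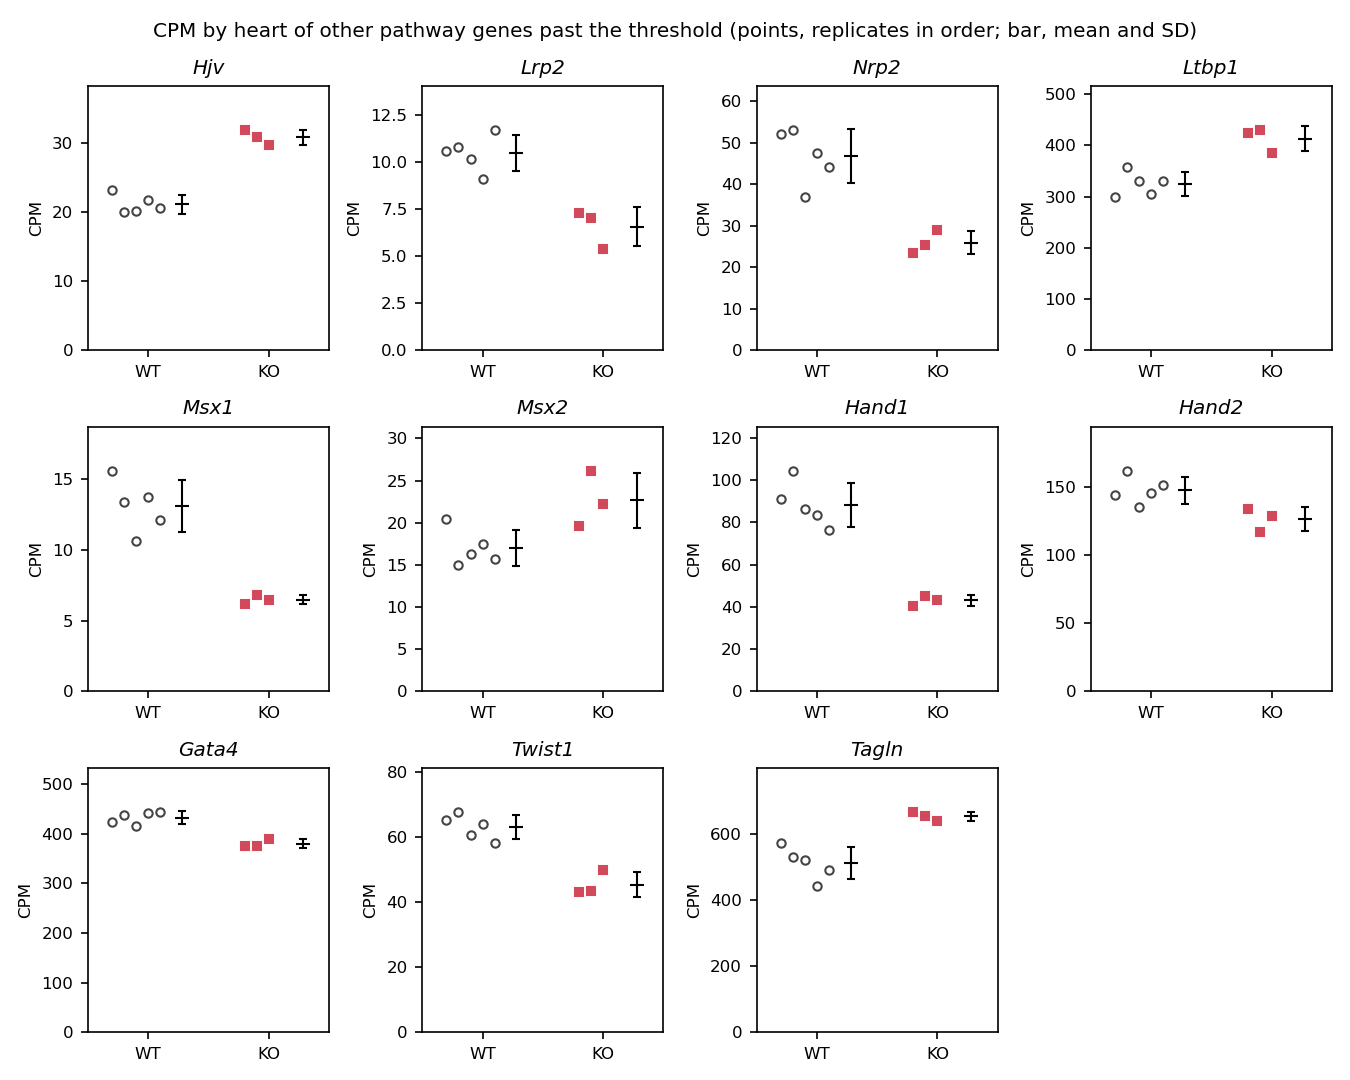
CPM by heart of the 11 further pathway genes past the threshold, with circles for 5 Kat6a WT and squares for 3 Kat6a KO hearts (replicates in order) and bars for mean and SD. Hjv, Ltbp1 and Tagln are higher and Lrp2, Nrp2, Msx1, Hand1, Hand2, Gata4 and Twist1 lower in Kat6a KO without overlap, while Msx2 overlaps through Kat6a WT replicate 1.

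In roles without a call, the genes of smallest p were small or imprecise differences. The modulators Twsg1 and Fstl1 had log2 fold changes of 0.21 ± 0.06 each (edgeR adjusted p = 0.0780 and 0.0821). Twsg1 passed under 2 of 18 alternatives, without Kat6a WT replicate 2 (adjusted p = 0.00457) and with no count filter (0.0399). Fstl1 passed under 3 of 18, these 2 (0.00459 and 0.0408) and DESeq2 (0.0344). Over all 18 alternatives their adjusted p reached 0.424 and 0.452. Mstn (myostatin) and Lefty1, an inhibitor of Nodal signalling, were near 1 CPM, at -0.82 ± 0.40 and -0.93 ± 0.47 (adjusted p = 0.366 and 0.388). The repressors Tgif1 and Ski of SMAD-driven transcription had -0.27 ± 0.10 and 0.10 ± 0.05 (adjusted p = 0.176 and 0.379).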

How the data were processed

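Total RNA of each heart went into a TruSeq stranded library, per the labels' protocols, and the submitters' processing notes name bcl2fastq, featureCounts and mm10. The deposited files hold whole raw read counts per Entrez gene ID, as made by the authors. Aligner, annotation, tool versions and strand setting: not given in the sources used here. Counts of overlapping genes are therefore uncertain. The 8 single-heart files held the same counts as the table used. RefSeq (GRCm38.p6) gave symbols for 25275 of 27179 IDs, and lengths are the deposited length column.

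After edgeR's low-count filter and trimmed-mean scaling, edgeR 4.0.16 (R 4.3.3, robust quasi-likelihood test, no covariate) compared Kat6a KO (n = 3) with Kat6a WT (n = 5), with Benjamini-Hochberg adjustment over 15086 genes. SE is the log2 fold change over the root of F, and 95% intervals use its degrees of freedom. The fit was tested on simulated counts of 12686 genes, with those of lowest level left out. It recovered 52% of 50 genes changed 1.25-fold and 88% of 50 changed 1.5-fold. Of all 178 calls in the simulated data, 10 were false. Sources do not say whether hearts came from separate litters, so p-values reflect only how these hearts vary; all 28 pairs differed beyond sampling noise (chi-square per degree of freedom at least 7.90).

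Alternatives were DESeq2 1.42.0, limma voom (3.58.1), other scalings and filters, no robust moderation, a replicate block, Xist as covariate or its 2 hearts left out, and leaving out each heart. Members and lists were chosen with earlier results of these data known. The rule printed per-heart values for the member of highest level in each role; those of other members, and Eng, Tbx2, Tbx3 and Has2, were chosen after values were seen. Further pathway genes were named when past the threshold, otherwise up to 2 per role.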

Additional observations from a re-analysis of the deposited data

Results flagged for a closer look

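A single heart stood apart from the other 4 Kat6a WT hearts in 2 of 54 genes examined, by the gap to the nearest heart divided by the range of the group (Dixon's 95% limit of 0.71 for 5 hearts); chance gives about 1 in 20. Bmp5 was at 63.5 CPM in Kat6a WT replicate 1 and at 47.0 to 49.8 CPM in the others (gap 0.830 of the range). Inhba was at 8.04 CPM in Kat6a WT replicate 2 and at 2.64 to 4.00 CPM in the others (0.748).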

How the results depend on the processing

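The members kept 0 calls in either direction under the 10 alternatives that used other tools, scalings, filters, covariates or blocks or left out the hearts with Xist RNA. Leaving out 1 heart gave 0 to 2 members higher (Bmp5 and Id2 without Kat6a WT replicate 1) and 0 to 1 lower (Acvr1 without that heart, Bmp10 without Kat6a KO replicate 1). Further pathway genes numbered 3 to 6 higher and 5 to 8 lower without 1 heart, 7 higher with no count filter and 4 lower with the replicate block. All genes numbered 103 to 300 higher and 91 to 200 lower without 1 heart (lowest without Kat6a KO replicate 1), 104 and 77 with the replicate block, 290 lower with DESeq2 and 116 lower without the hearts with Xist RNA. The same-numbered hearts did not deviate together (correlations 0.07, -0.12 and -0.05), each Kat6a KO heart correlated best with another number, and the replicate block lost the calls of Nrp2, Msx2, Hand2 and Gata4. Kat6a WT replicates 4 and 5 have no Kat6a KO heart of the same number, so the block takes nothing from them for the genotype difference. They are the 2 hearts with Xist RNA, so the block and leaving those out compare the same hearts. Of the 37 members, 28 kept the sign of their log2 fold change throughout and 9 near 0 did not. For Tgfb1 it was 0.11 with the replicate block, 0.12 with Xist as covariate, 0.11 without its hearts, 0.00627 with voom and 0.00282 with upper-quartile scaling; for Bmpr1a and Acvr1b it was -0.00428 and -8.54e-07 with Xist as covariate. Without 1 heart, it ranged from -0.16 to 0.0234 for Bmp6, -0.0434 to 0.0831 for Tgfb1, -0.0145 to 0.0786 for Bmpr2, -0.0111 to 0.0540 for Acvr1b, -0.0188 to 0.0497 for Tgfbr2, -0.0258 to 0.00726 for Smad4, -0.000494 to 0.0867 for Smad5 and -0.0792 to 0.0136 for Id3. By CPM without division by length, Id3 ranked 2 among targets; the leaders of the other roles were unchanged. The cause of these shifts was not tested. Grem1, at 0 to 7 counts per heart, had too few counts to be tested. Chrd, Inhba, Inhbb, Acvrl1 and Bmpr1b were low and varied between hearts, and the parts of depth and of that spread in their wide intervals were not tested. Among log2 fold changes of at least 0.15 in size that were not called, leaving out 1 heart also moved by over 1.5 times those of Bmp4 (-0.10 without Kat6a WT replicate 2), Chrd, Nog, Smad9, Acvrl1, Bmper, Id4 and Lefty1.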

Other observations

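Some values stood in no comparison above. Ccn2, a matrix protein gene induced by TGF-beta and by the Hippo effectors, was at 257 CPM in Kat6a KO replicate 1 and at 72.9 and 61.4 CPM in the other Kat6a KO hearts, against 51.3 to 87.6 CPM in Kat6a WT. In that heart the immediate early gene Egr1 was at 55.7 CPM, against 10.99 to 15.3 CPM in the other 7. Ccn2 did not pass (log2 fold change 1.03 ± 0.51, edgeR adjusted p = 0.443). Both genes were picked after their values were seen.

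Isl1, a marker of the second heart field, ranged from 3.34 to 10.3 CPM over the 8 hearts, and its relation to each of the 37 tested members was computed on log2(CPM + 0.5), a choice made after the values were seen. The largest Pearson's r was with Id3 (0.82, exact permutation p = 0.0143, adjusted 0.428; Spearman's rho 0.67, exact permutation p = 0.0831, adjusted 0.769), and r was 0.73 without the 2 hearts farthest from the median of Isl1. The largest Spearman's rho was with Bmp6 (0.81, exact permutation p = 0.0218, adjusted 0.565; Pearson's r 0.66, exact permutation p = 0.0718, adjusted 0.531), where r was 0.16 without those 2 hearts. Of the 37 relations 0 passed adjustment, and no value was computed within a genotype.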
